A study of Mus musculus with 12 samples.

Results

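The ribosomal protein genes encode the proteins of the cytosolic ribosome, the particle that translates messenger RNA in every cell. In this data set they comprised 62 genes of the 19938 genes with a probe group of their own, measured in the septum of 12 female mice. The genes were chosen by name: every gene whose symbol in the array's gene table begins with Rpl or Rps and a digit, or is Rplp0, Rplp1 or Rplp2, except the S6 kinases (Rps6k) and pseudogenes whose names end in -ps. Of the 62 genes, 30 encode proteins of the large subunit, 20 proteins of the small subunit and 3 the stalk of the large subunit, a further 8 are paralogues of such genes, and 1, Rps19bp1, encodes a protein that binds the small subunit protein RPS19. The 53 subunit protein genes were part of a list of 76, of which 16 others lay only in probe groups shared by several gene symbols and 7 in no named probe group, and these 23 were not analysed here.

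The study compared 6 lactating mice on postpartum days 6 to 8 with 6 virgin mice, all of about 70 days of age and all from a line bred from the outbred hsd:ICR stock for high maternal aggression, so that both groups carry that selected background. Lactating mice had spent 2 weeks with a breeder male, and virgin mice 2 weeks with 2 other females before single housing. The virgin mice were 2 each in 3 stages of the estrous cycle (estrus, diestrus I and diestrus II), and which mouse was in which stage is not given in the labels. Each mouse gave 1 array (Affymetrix Mouse Gene 1.0 ST) with no pooling, and the dissected tissue is called whole septum in the study's methods and lateral septum in the deposited protocol.

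The small and the large subunit hold equimolar sets of proteins, and their genes are therefore known to be expressed together. The messenger RNAs start with a run of pyrimidines, the 5′ terminal oligopyrimidine tract, through which the kinase mTOR and the RNA-binding protein LARP1 control their translation. An array measures the amount of these messenger RNAs and not their translation, and in tissue RNA a change in the number of cells and a change in RNA per cell cannot be told apart.

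Runs of pyrimidines near the annotated start were looked for in the RefSeq promoter windows (GRCm38.p6, 250 bases before to 50 bases after each annotated start). Such windows were given for 50 of the 62 genes. A run of at least 8 pyrimidines between 30 bases before and 50 bases after the start, read on the strand of the gene, was found for 37 of these 50 genes (74%) and for 32.3% of the 27025 genes with a window. In the whole windows, on both strands, the letters CCGGAA (the core of the site of ETS factors) were found for 50% of the ribosomal protein genes and 16.7% of all genes, GGGCGG (the box of SP1) for 58% and 38.2%, and ATGGCGG (the core of the YY1 site) for 16% and 4.69%. The letters TATAAA (the TATA box) were found for 12% and 15.7%. The SP1 and YY1 letters share their ending GGCGG. These matches describe the sequences and show no binding. The windows of 8 genes are given with the run in capitals because the first 4 genes are those called higher with linear intensities below, Rps12 varied with most other subunit proteins, and the last 3 were not low in the virgin mouse in which most subunit proteins were. Windows were printed only for genes with such a run, so its presence in these 8 is not a result. Counted from the annotated start, the printed runs begin at -3 for Rps10, -1 for Rps6, 9 for Rps12 and 18 for Rpl10a. Those of Rpl37a, Rps15, Rps21 and Rpl41 begin at 24, 26, 35 and 41. Whether these runs are the terminal tracts of the messenger RNAs was not tested.
Rps10, chr17:27635226-27635255, minus strand: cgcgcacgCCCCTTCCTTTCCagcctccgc
Rpl37a, chr1:72711275-72711304, plus strand: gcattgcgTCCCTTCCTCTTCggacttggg
Rps21, chr2:180257399-180257428, plus strand: ggaggcacgagctaCTTCCTTTCTgcgctc
Rps15, chr10:80292448-80292477, plus strand: agcccgtaCTTCCTTTTCCgagtaaccgcc
Rps12, chr10:23787180-23787209, minus strand: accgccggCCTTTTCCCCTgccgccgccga
Rpl41, chr10:128549119-128549148, minus strand: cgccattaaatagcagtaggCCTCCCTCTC
Rps6, chr4:86857347-86857376, minus strand: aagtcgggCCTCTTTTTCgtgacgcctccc
Rpl10a, chr17:28328574-28328603, plus strand: gcgctctgCCTTCTTTCCggtttccgcggc

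The values are PLIER intensities on a linear scale, 1 for each transcript cluster (the array's group of probes for a transcript), and each gene is represented by its brightest cluster. The mean intensities of the 62 clusters over the 12 arrays lay between 123.8 and 11546, with a median of 2772 that corresponds to the percentile 92.9 of all 35556 clusters. Medians of the arrays lay between 320 and 339, and the correlation of log2 values between any pair of arrays was between 0.987 and 0.994. One library stood apart for these genes. Virgin mouse 2 had the lowest value of all 12 mice for 35 of the 53 subunit protein genes. Among all 19938 genes it was the lowest for 3061 and the highest for 4174, so it was not extreme for these genes alone. Many of the main results are therefore also given without this mouse, where this is stated. The permutation tests and the alternative fits were not repeated without it. The markers of septal neurons (Gad1, Gad2, Slc32a1, Zic1, Trpc4, Nts and Sst) were all measured, with mean intensities of at least 669, and none passed the limma test between the groups.

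No ribosomal protein gene was higher in lactating than in virgin mice at an unadjusted p under 0.05 (limma on log2 of the intensity plus 16), and 1 gene, Rpl29, was lower. Among all 19938 genes 3.86% were higher and 4.83% lower at that threshold. None of the 62 passed the stricter unadjusted threshold of 0.0025 on the log2 scale, which 0.306% of all genes did, and their smallest adjusted p (Benjamini-Hochberg over all clusters) was 0.623. On the linear scale Rpl29 passed it (limma, unadjusted p = 0.000614), as did 0.597% of all genes and 1.17% of the bright genes described next. For none of them did the values of the 6 lactating and the 6 virgin mice separate without overlap, while 0.251% of all genes separated with the lactating mice higher and 0.201% with the lactating mice lower. Among 3153 genes with a mean intensity above the lower quartile of the subunit proteins, 4.54% were higher and 0.92% lower. The exact permutation test over all assignments of the mice to the groups, whose smallest possible p is 0.00216, placed 4 of the 62 genes higher (Rps10, Rps15, Rpl37a and Rps29) and 1 lower (Rpl29) at p under 0.05, beside 5.21% and 4.44% of all genes. The genes called thus depended on the test, and whether their number differs from the share of all genes was not tested.

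The differences were small for every gene. The mean of the lactating mice differed from that of the virgin mice by -9.02% to 8.41%, and the log2 differences (lactating minus virgin, on the log2 scale of intensity plus 16) had a median of 0.034 and a median standard error of 0.053. The 95% interval of the difference lay within 1.1-fold either way for 24 of the 62 genes, within 1.2-fold for 60 and within 1.3-fold for all 62. The bounds farthest from 0 were -0.26 and 0.31. Changes beyond 1.3-fold thus lie outside the intervals of all these genes, and smaller ones lie within the interval for some of them.

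**Figure D1:**
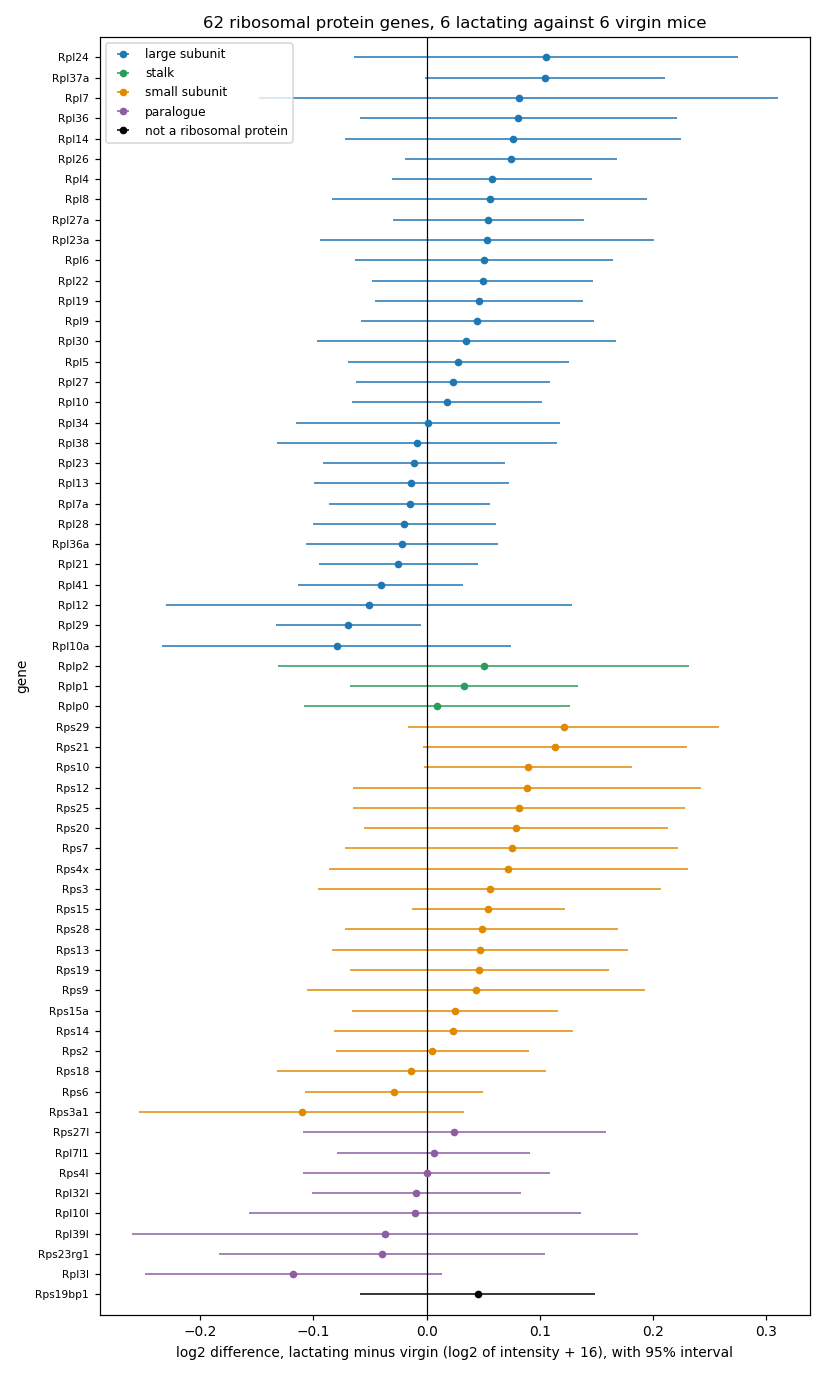
Log2 difference between the 6 lactating and the 6 virgin mice (horizontal axis, log2 of intensity plus 16) for each of the 62 ribosomal protein genes (vertical axis), with its 95% interval from limma and colours for the role of the protein. The interval of Rpl29 alone lies off 0, and the bounds farthest from 0 are -0.26 and 0.31.

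Of the 62 differences 42 were above 0, compared with 9543 of all 19938 genes (median -0.0043) and 2254 of the 3153 bright genes (median 0.023). This count rested on virgin mouse 2. Without that mouse 30 of the 62 differences were above 0 and the median was -0.0012, and none of the 62 genes was higher or lower at an unadjusted p under 0.05 by limma. In the same fit 598 of all 19938 genes were higher and 571 lower. The bright genes kept 2179 of 3153 differences above 0 without it, with a median of 0.019.

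Among the large subunit proteins, 19 of 30 differences were above 0 with a median of 0.032, and without virgin mouse 2 the count was 13 of 30 with a median of -0.0052. Rpl29, whose product is a small basic protein of the large subunit, had intensities from 2612 to 2733 with a median of 2702 in lactating mice and from 2720 to 2891 with a median of 2838 in virgin mice. The groups overlapped, with 4 lactating mice below every virgin mouse and 5 virgin mice above every lactating mouse. The means were 2692 ± 45.4 (SD, n = 6) and 2825 ± 56.6 (SD, n = 6), a log2 difference of -0.069 with a standard error of 0.030 (limma, unadjusted p = 0.0364, adjusted p = 0.623, exact permutation p = 0.00649). The unadjusted limma p ranged from 0.0229 to 0.0762 when each mouse was left out in turn, was 0.0601 without virgin mouse 2, and was over 0.05 in 8 of the 12 cases. With linear intensities and all mice it was 0.000614, and with each array's median subtracted 0.154. Rpl29 has 1 cluster that carries its symbol alone, and clusters with several symbols were not used.

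Rpl37a, a zinc-binding protein of the large subunit, had intensities from 2506 to 2798 with a median of 2677 in lactating mice and from 2215 to 2709 with a median of 2473 in virgin mice. The groups overlapped, with 4 virgin mice below every lactating mouse. Its log2 difference was 0.10 with a 95% interval from -0.0018 to 0.21 (limma, unadjusted p = 0.0534, exact permutation p = 0.0390), and it was 0.071 without virgin mouse 2 (unadjusted limma p = 0.116). Rpl7 and Rpl24, also of the large subunit, had differences of 0.08 and 0.11 that fell to -0.021 and 0.028 without that mouse. Rpl10a, whose product is known as the tag of ribosome purification methods in mice, had a difference of -0.079 (limma, unadjusted p = 0.286) with intensities from 5077 to 6626 in lactating and from 5414 to 6575 in virgin mice. It was -0.053 without virgin mouse 2, and between -0.047 (without lactating mouse 1) and -0.12 (without lactating mouse 2) when each mouse was left out.

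Among the small subunit proteins, 17 of 20 differences were above 0 with a median of 0.052, and without virgin mouse 2 the count was 13 of 20 with a median of 0.0089. Rps10, a protein near the messenger RNA entry of the small subunit, had intensities from 5923 to 6539 with a median of 6126 in lactating mice and from 5266 to 6209 with a median of 5814 in virgin mice. Of the virgin mice 5 were below every lactating mouse, and the sixth overlapped them. The log2 difference of Rps10 was 0.090 with a 95% interval from -0.0024 to 0.18 (limma, unadjusted p = 0.0555, exact permutation p = 0.0260), and 0.064 without virgin mouse 2 (unadjusted limma p = 0.120).

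Rps15, a protein of the head of the small subunit, lay between 9485 and 10252 with a median of 9677 in lactating mice and between 9333 and 9600 with a median of 9376 in virgin mice. The groups overlapped, with 5 lactating mice above every virgin mouse. Its difference was 0.055 (limma, unadjusted p = 0.105, exact permutation p = 0.0130), and 0.060 without virgin mouse 2, so that this gene did not move with that mouse. Its dimmer clusters differed by 0.050 (limma, unadjusted p = 0.199, exact permutation p = 0.123) and 0.036 (limma, unadjusted p = 0.446, exact permutation p = 0.418). Rps21 lay between 1118 and 1281 with a median of 1216 in lactating mice and between 974 and 1187 with a median of 1130 in virgin mice, so that the groups overlapped. The difference of Rps21 was 0.11 (limma, unadjusted p = 0.0549, exact permutation p = 0.0519) and 0.077 without virgin mouse 2.

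Rps29, a zinc-binding protein of the small subunit, lay between 1520 and 1640 with a median of 1615 in lactating mice and between 1188 and 1613 with a median of 1497 in virgin mice. Its log2 difference of 0.12 was the highest of the 62 genes (limma, unadjusted p = 0.0789, exact permutation p = 0.0390), and it was 0.062 without virgin mouse 2, which held the lowest value. Rps3a1 lay between 531 and 621 with a median of 586 in lactating mice and between 578 and 741 with a median of 594 in virgin mice, a difference of -0.11 (limma, unadjusted p = 0.120) that was -0.062 without virgin mouse 6. Rps6, the substrate of the S6 kinases, differed by -0.029 (limma, unadjusted p = 0.442), and by -0.011 without virgin mouse 4 and -0.046 without lactating mouse 5.

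**Figure D2:**
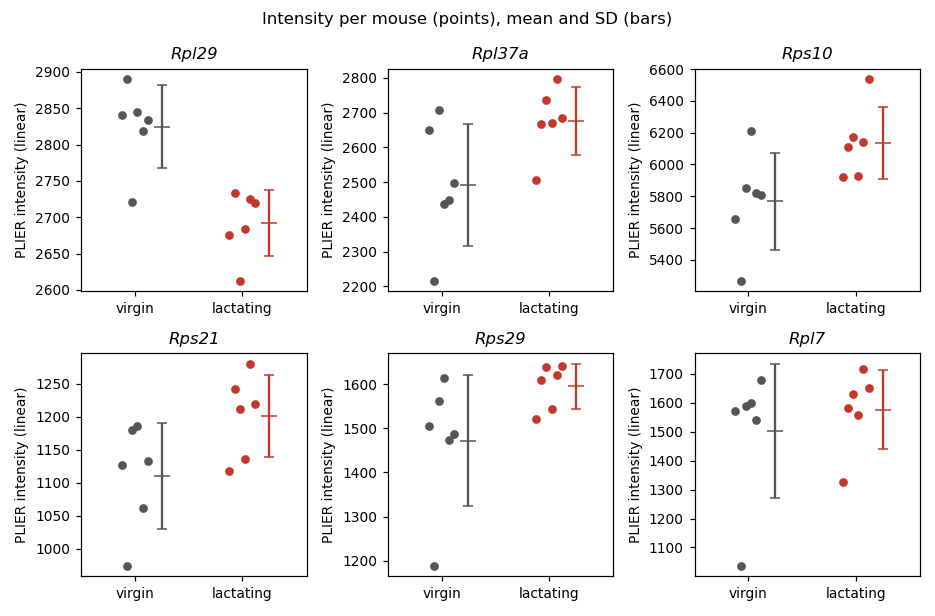
PLIER intensity (vertical axes, linear, not starting at 0) of 6 ribosomal protein genes in each virgin and lactating mouse (points), with the group mean and SD as bars. Groups overlap for every gene, and the lowest virgin value of Rpl7, 1036, and of Rps29, 1188, is that of virgin mouse 2.

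The calls among these genes changed with the scale and the variance model. With linear intensities Rpl37a, Rps10, Rps15 and Rps21 were higher and Rpl29 lower, 4 genes against 1, where 5.92% of all genes were higher and 3.74% lower. With a variance trend and robust estimation the same 4 were higher and Rpl29 lower, where 4.75% of all genes were higher. With each array's median subtracted these 4 were higher and none was lower, where 6.8% of all genes were higher. None of the 62 genes had an adjusted p under 0.05 in any of these fits.

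The stalk binds the elongation factors of translation. The differences of its 3 proteins were 0.0095 for Rplp0, 0.033 for Rplp1 and 0.050 for Rplp2, with limma unadjusted p of 0.864, 0.488 and 0.558. Rplp0 lay between 2432 and 2774 in lactating and between 2436 and 2935 in virgin mice, and its difference was -0.015 without virgin mouse 2. Without that mouse the difference of Rplp1 was 0.011. Rplp2 lay between 770 and 931 in lactating and between 642 and 949 in virgin mice, and its difference was -0.028 without virgin mouse 2.

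The 8 paralogues include genes known from particular tissues, such as Rpl3l in striated muscle and Rpl10l and Rpl39l in the testis. Of their differences 2 were above 0, with a median of -0.0097, and none passed the limma test. Rpl3l lay between 110 and 128 with a median of 118 in lactating mice and between 110 and 149 with a median of 128 in virgin mice. Its difference of -0.12 was the lowest of the 62 genes (limma, unadjusted p = 0.0750, exact permutation p = 0.0823) and was -0.081 without virgin mouse 2, which held the highest value. The mean intensities of Rpl3l (123.8) and Rpl39l (129.0) lay below the array medians of 320 to 339, so both are dim. Differences were -0.037 for Rpl39l, -0.010 for Rpl10l, -0.0089 for Rpl32l, -0.040 for Rps23rg1, 0.0064 for Rpl7l1 and 0.024 for Rps27l. Rps4l, a transcribed pseudogene in RefSeq, had means of 897 ± 47.6 in lactating and 898 ± 59.4 in virgin mice (SD, n = 6 each). Rps19bp1 differed by 0.045 with virgin mouse 2 and by 0.0039 without it.

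The subunit protein genes tended to vary together between mice. After the group means were subtracted, the median correlation over the 1378 pairs of subunit protein genes was 0.46 across the 12 arrays, and 85.3% of pairs were above 0. It was 0.34 within the large subunit and 0.72 within the small subunit, and 0.0065 over pairs of every 10th gene by intensity. The genes of that last set span all intensities and were not matched in brightness to the subunit protein genes. The 77 mitochondrial ribosomal protein genes had a median of 0.36 with 80.0% of pairs above 0, so that such variation was not particular to the cytosolic ribosome. Without virgin mouse 2 the medians were 0.37 for all subunit proteins, 0.29 for the large and 0.50 for the small subunit, and 0.29 for the mitochondrial ribosomal protein genes. These are descriptions over arrays that share normalization, and the genes are not independent of each other.

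Correlation with the mean of the other subunit proteins was highest for Rps28 (0.976), Rpl23a (0.958), Rps21 (0.952) and Rps12 (0.948). It was -0.325 for Rpl29, -0.286 for Rpl41, -0.077 for Rpl10a, 0.030 for Rps6 and 0.092 for Rps15. Without virgin mouse 2 Rps28, Rpl23a, Rps21 and Rps12 were at 0.971, 0.978, 0.941 and 0.830, and Rpl29 and Rpl41 at 0.064 and 0.049. Rpl10a was then at 0.427, Rps6 at 0.283 and Rps15 at 0.574, while Rpl26 was the lowest at -0.093. The negative correlations of Rpl29 and Rpl41 thus rested on that mouse.

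**Figure D3:**
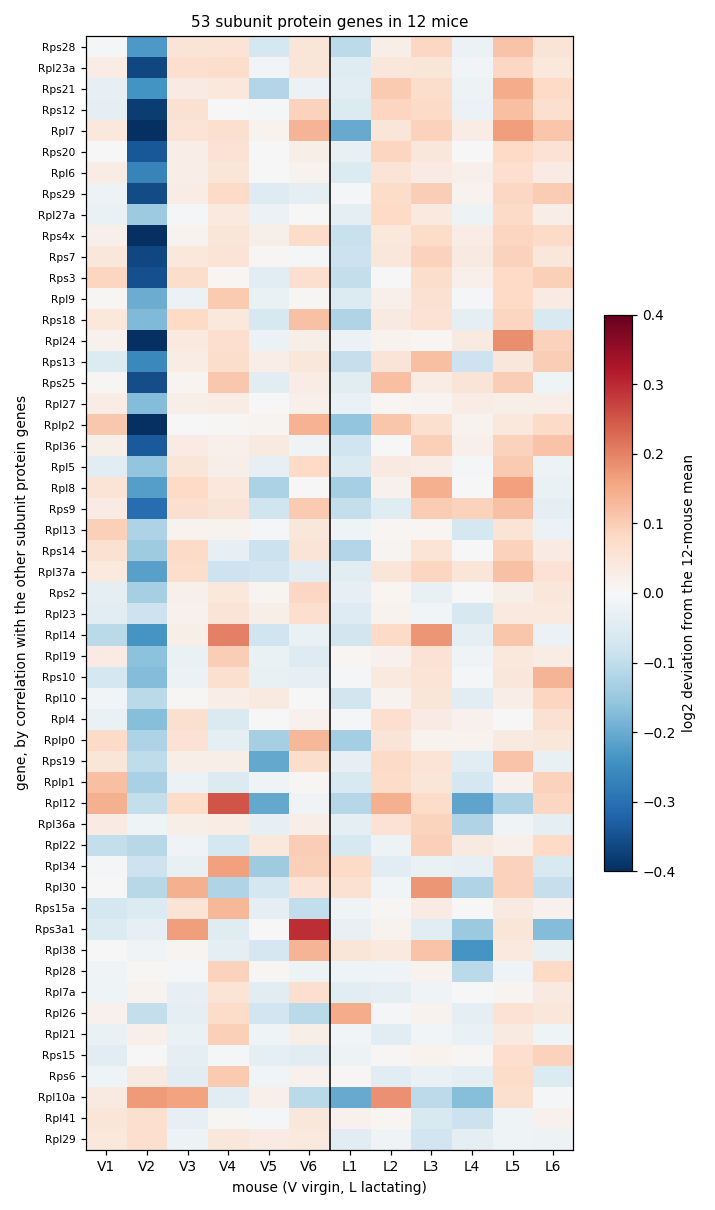
Log2 deviation of each of the 53 subunit protein genes (rows, ordered from the highest to the lowest correlation with the others) from its mean over the 12 mice (columns, V virgin and L lactating), blue below and red above it, with colours ending at 0.4 either way. The column of virgin mouse 2 is blue for most genes but not for the lowest rows, among them Rps6, Rpl10a, Rpl41 and Rpl29.

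In virgin mouse 2 the log2 values of the subunit protein genes differed from the median of the other 11 mice by a median of -0.175. The median was -0.275 for the small and -0.137 for the large subunit, -0.144 for the 77 mitochondrial ribosomal protein genes and 0.024 for all genes. The lowest value of the 12 mice was that of virgin mouse 2 for 15 of 20 small and 18 of 30 large subunit genes, 41 of 77 mitochondrial ribosomal protein genes, 25.6% of the bright genes and 15.4% of all genes. This mouse held the highest value for 2 of the 53 subunit protein genes, 353 of the 3153 bright genes and 4174 of all 19938 genes. Its Rpl7 value of 1036 was 65.2% of the median of the other mice, which lay between 1325 and 1715. The shares were 72.2% for Rpl24, 72.4% for Rplp2, 73.4% for Rps12, 73.6% for Rps4x and 75.2% for Rpl23a, and in each case its value was below those of all 11 other mice.

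The decrease did not extend to every subunit protein. The value of virgin mouse 2 was 113% of the median of the other mice for Rpl10a, 106% for Rpl29, 104% for Rpl41 and 104% for Rps6. The paralogues Rpl39l and Rpl3l, both dimmer than the array medians, had 130% and 120%. Of the markers of other cell types, those of microglia had their lowest mean in this mouse, with a mean log2 deviation of -0.124 beside -0.098 for the next lowest mouse. Those of astrocytes were second lowest with -0.106 and those of neurons second highest with 0.049. The other 8 marker lists lay between the lowest and the highest of the other mice. RNA quality per mouse is not given in the sources used here, and the part of cell composition or RNA quality in the values of this mouse was not tested.

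The mean deviation over the 62 genes averaged 0.013 ± 0.038 over the lactating and -0.013 ± 0.071 over the virgin group (SD, n = 6 each), a difference smaller than the spread between mice. Virgin mouse 2 was at -0.149, and the other 11 mice lay between -0.040 and 0.056. For the small subunit alone it was at -0.218, while the lowest lactating mouse, lactating mouse 1, was at -0.056.

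**Figure D4:**
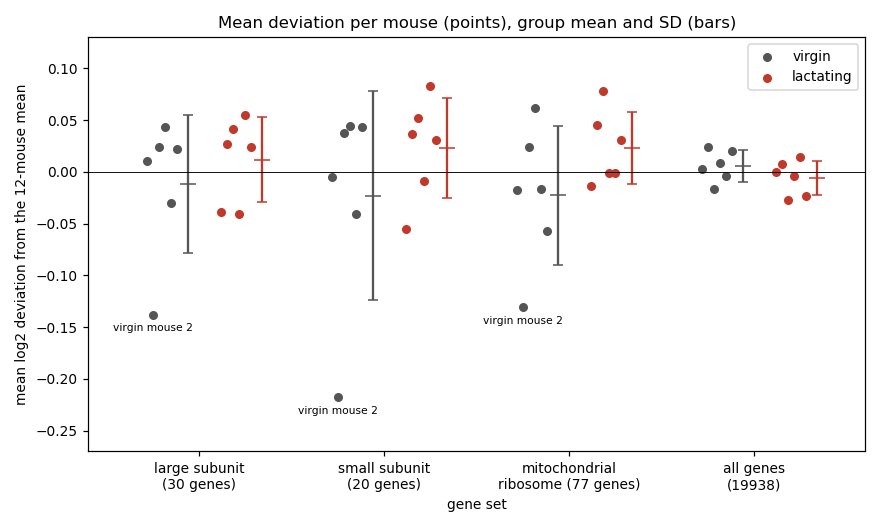
Mean log2 deviation from the 12-mouse mean (vertical axis) of each virgin and lactating mouse (points) over the large subunit, small subunit, mitochondrial ribosomal protein genes and all genes, with the group mean and SD as bars. Virgin mouse 2 lies below the other 11 mice for the first 3 sets, at -0.138, -0.218 and -0.131, and not for all genes.

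Counting only clusters with 1 symbol, 38 of the 62 genes had more than 1 cluster. There were 214 clusters in all, with up to 14 for Rps12. The log2 differences of the clusters of a gene ran in 1 direction for 34 of these 38 genes and in both for the other 4, and their range within a gene had a median of 0.021. In no gene was 1 cluster higher and another lower at an unadjusted p under 0.05 by limma. Among all 35556 clusters 3.26% were higher and 4.69% lower at that threshold. Over the 214 clusters 1 was higher, a second cluster of Rps10 with means of 5139 ± 91.1 and 4858 ± 165 (SD, n = 6 each) and a difference of 0.081 (limma, unadjusted p = 0.0287, exact permutation p = 0.00433), and 1 was lower, that of Rpl29. The clusters of Rpl7a ranged from -0.015 to 0.087. Clusters of a gene are not independent measurements: the 3 clusters of Rpl41 held identical values, and the 14 of Rps12 held 8 distinct sets of values. Ribosomal protein genes have many processed pseudogenes of near-identical sequence, whose signal these probes could share, and such copies cannot be told apart here.

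**Figure D5:**
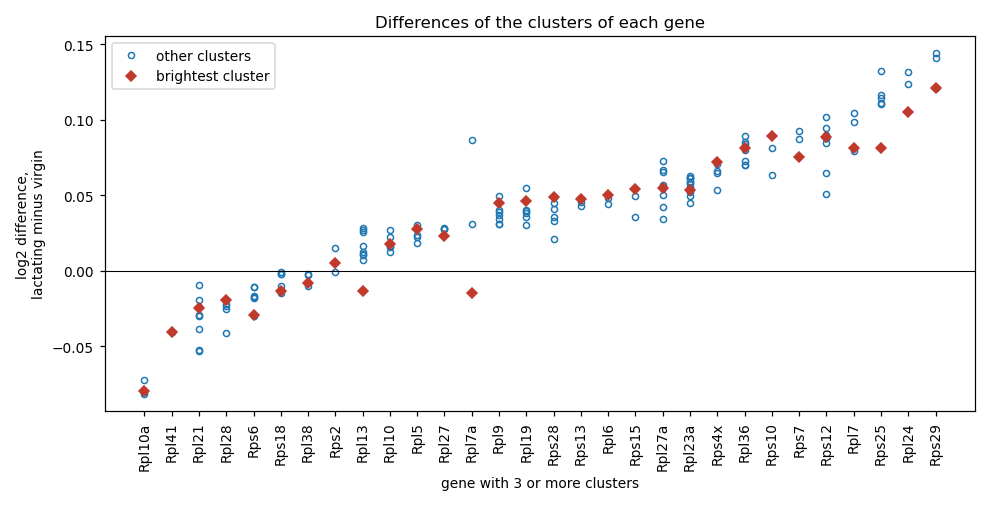
Log2 difference between lactating and virgin mice (vertical axis) of every cluster of each ribosomal protein gene with 3 or more clusters (horizontal axis), with the brightest cluster as a filled diamond and the others as open circles. Clusters of 1 gene mostly lie close together, while those of Rpl7a range from -0.015 to 0.087.

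The other genes of the translation machinery showed differences of similar size. Of the subunit proteins with other names, Rpsa and Fau were measured, with differences of 0.075 and 0.057 that did not pass the limma test. Among elongation factors and other genes known for a 5′ oligopyrimidine tract, 2 of 11 measured genes were higher and none lower, with a median of 0.020, beside the 3.86% higher and 4.83% lower of all genes. Both belong to the exchange factor that reloads elongation factor 1A with GTP. Eef1b2 had means of 2365 ± 108 in lactating and 2163 ± 172 in virgin mice (SD, n = 6 each; difference 0.13, limma, unadjusted p = 0.0374), and Eef1d 544 ± 30.4 and 502 ± 17.6 (difference 0.11, unadjusted p = 0.0203). Of 13 measured genes of the mTOR, S6 kinase and LARP1 list, 1 was higher and none lower, with a median of 0.017. That gene, Akt1s1, encodes an inhibitor in the mTOR complex, and its means were 743 ± 12.3 and 701 ± 31.3 (SD, n = 6 each; difference 0.08, limma, unadjusted p = 0.0387). The adjusted p was 0.623 for Eef1b2 and Akt1s1 and 0.619 for Eef1d.

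Of the mitochondrial ribosomal protein genes 62 of 77 differences were above 0 with a median of 0.048, and 7 were higher and none lower by limma at an unadjusted p under 0.05. Without virgin mouse 2 these counts were 53 of 77 with a median of 0.027, and 3 higher. The share of all genes higher was 3.86% with and 3% without that mouse, and that of the bright genes 4.54% and 3.58%. Whether these genes differed from the cytosolic ones in their response was not tested. Among the markers of other cell types, beside the 3.86% higher and 4.83% lower of all genes, 2 of 6 microglial genes (P2ry12 and Cx3cr1) and 1 of 6 ependymal genes were lower. Of the microglial differences 4 were below 0 and 2 above 0 (Aif1 0.030 and Tmem119 0.048). The summed intensity of the microglial genes was 3443 to 3718 in lactating and 3455 to 4373 in virgin mice. The 4373 was that of virgin mouse 6, and the next highest virgin sum was 3696. In addition 1 of 6 choroid plexus and 1 of 2 measured blood genes were higher. No gene of the striatal or the cortical and hippocampal list passed the limma test. However, all 4 measured striatal differences were below 0 (median -0.16) and all 5 measured cortical and hippocampal ones above 0 (median 0.49). Lactating mouse 4 had the lowest mean log2 deviation of the striatal list (-0.48) and the highest of the cortical and hippocampal list (1.53). No marker list had a gene at 0, and their part in the differences of the ribosomal protein genes was not tested.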

How the data were processed

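Intensities of 12 arrays were deposited by the authors as a linear table. The authors made them with PLIER and GC bin background correction in Affymetrix Power Tools 1.12.0; the genome build of the array annotation is not given in the sources used here. The table holds no read counts, so precision is limited by the number of mice. Gene names came from the platform's probe gene table, of which 21789 clusters have 1 symbol, 1621 several and 12146 none; only clusters with 1 symbol were used for genes. Intensities plus 16 were taken to log2 and all 35556 clusters were fitted with limma 3.58.1 (lmFit and eBayes, R 4.3.3), two-sided, without a filter, with Benjamini-Hochberg adjustment over all clusters. The fit was tested on simulated data. Exact permutation tests were two-sided. Alternatives tried were an added value of 1, linear intensities, quantile, median and cyclic loess normalization, a filter on dim clusters, a variance trend, array weights, the replicate number as a block, all clusters of a gene, and each mouse left out. A restriction to subunit proteins was added after the data were seen.

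The members, lists and tests were chosen with earlier results of these data known. Genes were named by rule where they had an unadjusted p under 0.05, were paralogues, stalk proteins or Rps19bp1, or were the 3 with the widest spread over the arrays; the other named genes were chosen after their values were seen. Same-numbered mice of the groups are not paired in the labels. RNA was extracted in matched pairs per the methods, with no key to the pairs in the sources used here. The roles of Rpl32l and Rps23rg1 were assigned after the array's symbols were seen.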

Additional observations from a re-analysis of the deposited data

Results flagged for a closer look

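Within a group of 6 mice, the gap between the lowest or the highest mouse and its nearest neighbour was divided by the group's range. A ratio above Dixon's 95% critical value was taken as a sample far from the others, which chance gives in about 1 in 20 groups. Virgin mouse 2 was such a low value for Rpl7 (0.822), Rpl24 (0.821), Rpl23a (0.812), Rps19bp1 (0.809), Rplp2 (0.753), Rps12 (0.728) and Rps29 (0.705), and for the mean deviation of all 62 ribosomal protein genes (0.641) and of the small subunit (0.674). Lactating mouse 1 was such a low value for Rplp0 (0.792), Rplp2 (0.639) and Rpl7 (0.627), and lactating mouse 3 for Rpl39l (0.644). Over all 62 genes and both groups, 24 of 124 groups held such a value, and in 17 of them it was that of virgin mouse 2. These genes tend to vary together between mice, so the groups are not independent cases. The ratio was not counted over all genes, so there is no share to set beside these counts. The cause was not tested.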

How the results depend on the processing

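The count of ribosomal protein genes higher at an unadjusted p under 0.05, 0 by limma and 4 by the permutation test, was 4 with linear intensities, a variance trend or each array's median subtracted, 3 with array weights or over clusters above the median intensity (58 genes tested), 2 with a gene's clusters averaged, 1 with quantile normalization or cyclic loess, and 0 to 4 when each mouse was left out. The genes called by limma were among Rpl37a, Rps10, Rps15 and Rps21, except that Rpl26 and Rps29 were also called without virgin mouse 4, and the permutation test called Rps29 and not Rps21. The count of lower genes, 1, was 0 with the median subtracted and with the replicate block, and 0 to 2 when each mouse was left out, with Rpl3l called without lactating mouse 1 or virgin mouse 3. Among these alternatives, shares of all genes were counted only for the settings where they are given above. The other counts have no such share beside them, so they cannot be read as particular to these genes. Residuals of same-numbered mice correlated between -0.027 and 0.25, so the numbers were not taken as a pairing, and the block left 0 higher. The median log2 difference lay between -0.0012 (without virgin mouse 2) and 0.058 (median subtracted). The causes were not tested. Small differences changed sign. Rpl7l1 was at -0.015 and -0.013, Rplp0 at -0.0055 and -0.0080 and Rpl39l at 0.0068 and 0.015 with quantile normalization and cyclic loess, and Rps23rg1 was at 0.0018 with cyclic loess. With the median subtracted Rpl10l was at 0.013, Rps4l at 0.024, Rpl32l at 0.015 and Rpl7a at 0.0086, and Rpl7a was at 0.034 with the mean over its clusters. Leaving out 1 mouse moved Rpl10l between -0.043 and 0.047, Rpl23a between -0.014 and 0.073, Rpl32l between -0.036 and 0.0075, Rpl39l between -0.095 and 0.025, Rpl7 between -0.021 and 0.13, Rpl7l1 between -0.0096 and 0.027, Rplp0 between -0.016 and 0.037, Rplp2 between -0.028 and 0.087, Rps27l between -0.020 and 0.047 and Rps4l between -0.030 and 0.028. The number of mice limits the precision to differences of about the standard errors given.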
